A study of Mus musculus with 246 samples.

Results

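Cwc22 and 7 genes that are nearly identical to its coding sequence (Gm13691, Gm13693, Gm13694, Gm13695, Gm13696, Gm13697 and Gm13698) were followed through RNA-seq libraries from 6 regions of the mouse brain. The members are these 8 gene names, of 56691 genes in the deposited table, and they were chosen by their differences between conditions among mice taken without a social interaction. Those comparisons are therefore given as values only. The animals were male mice of the outbred CD1 stock. From each of 41 mice, tissue was punched bilaterally from 6 regions, which are the medial prefrontal cortex (mPFC), the anterior cingulate cortex (ACC), the nucleus accumbens (Nacc), the basolateral amygdala (BLA), the dorsomedial thalamus (DMT) and the ventral hippocampus (vHipp). For the Nacc, the paper's methods name the shell and its introduction the core.

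The study asked whether blocking the stress protein FKBP51 early in life changes what early life adversity (ELA) leaves behind in the adult brain. ELA pups were raised with limited bedding and nesting material, and Ctrl pups with the usual amount. SAFit2, a selective FKBP51 inhibitor, or the empty vehicle gel (Veh) was injected into the dams as a depot, so the pups themselves were not injected. The mice without social interaction comprised 7 Ctrl_Veh, 7 ELA_Veh and 7 ELA_SAFit2 animals. The mice taken after 10 minutes with an unfamiliar mouse comprised 6 Ctrl_Veh, 7 ELA_Veh and 7 ELA_SAFit2 animals. Single animals are named by the end of their labels, such as NoInteraction_13, and the plots give the number alone. By the labels, the same number in several regions is the same animal, which 12 Nacc libraries went against. The litter of each mouse was not used here.

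Cwc22 is a splicing factor that is needed for catalysis by the spliceosome. It also brings the helicase Eif4a3 to spliced RNA, where Eif4a3 becomes the core of the exon junction complex that marks each splice junction for export, translation and surveillance. In the mouse, Cwc22 lies in a duplicated segment whose number of copies differs between strains and between individuals of outbred stocks. The copies named here are annotated as single-exon genes without a described function of their own.

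In the GENCODE annotation of GRCm38, Cwc22 spans chr2:77881159-77946375 on the minus strand, with 21 exons and a coding length of 2727 bases including the stop codon. The 7 copies lie on the plus strand of the same chromosome between 83955693 and 83993045, 6.01 Mb away. They stand in tandem with 5810 bases between neighbouring starts. In this order they are Gm13698, Gm13693, Gm13695, Gm13696, Gm13694, Gm13697 and Gm13691. Each has a single exon and a coding length of 2493 bases. GENCODE types them as protein-coding and RefSeq as pseudogenes.

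Of the 7 copies, 6 had the same coding sequence to the last base, and Gm13695 carried a single difference from them, A1280T, counted from the first base of the reading frame. Between Cwc22 and any copy, 39 of 2474 aligned bases differed, an identity of 98.424%. The stretch around the Gm13695 difference is shown because it holds all that sets its coding sequence in this annotation apart from the other 6 copies. Capitals mark 15 bases that have no counterpart in Cwc22 as aligned, and 1 further base at which Cwc22 and the copies differ.
Cwc22: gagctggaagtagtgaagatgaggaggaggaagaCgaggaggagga
Gm13691: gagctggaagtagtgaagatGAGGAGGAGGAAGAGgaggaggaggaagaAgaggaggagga
Gm13695: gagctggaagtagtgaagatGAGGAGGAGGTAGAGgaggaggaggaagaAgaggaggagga
Most of the reading frame separates Cwc22 from the copies only at scattered bases. The densest 90 bases without gaps held 7 differences, in capitals, and are shown as the stretch with the most single-base differences. A further 253 bases were present in Cwc22 alone and 19 in the copies alone.
Cwc22: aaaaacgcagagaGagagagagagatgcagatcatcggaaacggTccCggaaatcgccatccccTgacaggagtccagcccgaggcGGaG
Gm13691: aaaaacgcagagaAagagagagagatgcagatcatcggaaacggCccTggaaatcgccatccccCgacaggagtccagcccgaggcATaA
Reads of the study were 100 bases long at each end. Of the 2394 windows of this length in Gm13691, 475 (19.8%) also occur letter for letter in the coding sequence of Cwc22. Counts of single copies are thus uncertain, since a counting tool has to split reads that fit several genes. Their sum does not depend on how reads are split among the copies. Both the sum and Cwc22 still depend on the split between them, which was not tested. Reads of any copy missing from the annotation were not looked for.

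Total estimated counts per library lay between 20804219 and 43351397, with a median of 28844763. Drd1, a marker of the Nacc, was highest there (median 208 CPM, counts scaled to a common library total), as was Tcf7l2 in the DMT (437). Of the 4 markers of the vHipp, Zbtb20, Prox1 and Fibcd1 were highest there, and Spink8 in the BLA (5.72 against 3.86). The 3 markers of cortical projection neurons were highest in the ACC. Of the 4 markers of the BLA, Etv1 alone was highest there, and the BLA also held the choroid plexus gene Ttr at a median of 2219. By 60 genes per region that differ between mice, 12 of the 41 Nacc libraries matched a mouse other than the one on their label, and no library of another region did. None of these 12 came from the 4 animals on which the results turn. In the 12 libraries Cwc22 lay between 18.2 and 28.0 CPM, and 25 of the other Nacc libraries reached at most 27.7.

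Cwc22 stood at a similar level in 37 mice and far higher in the remaining 4. As means over the 6 regions, the 37 lay between 20.4 and 24.7 CPM and the 4 between 430.5 and 522.8, so that the lowest of the 4 was 17.4-fold above the highest of the 37. NoInteraction_13 and NoInteraction_101 were ELA_Veh mice, and SocialInteraction_55 and SocialInteraction_95 were ELA_SAFit2 mice. In each of them every region showed the high level. CPM values were TMM-scaled and not divided by gene length. Over all libraries, 222 lay between 17.2 and 28.8 CPM and 24 between 215.7 and 610.8, and no library fell between these ranges. The step between both ranges was 7.48-fold, and the widest other step was 2.12-fold.

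In the mPFC, Cwc22 stood at 513 CPM in NoInteraction_13, 470.2 in NoInteraction_101, 483 in SocialInteraction_55 and 460.0 in SocialInteraction_95, and between 19.5 and 26.7 in the other 37 mice. In the ACC, the values were 503, 508, 459 and 216 in the same order, against 19.7 to 25.3 elsewhere. The low value among these belonged to SocialInteraction_95, which was still 8.54-fold above the highest of the 37. Nacc libraries held 567, 523, 518 and 468 CPM in these mice, against 18.2 to 28.0. BLA libraries held 488, 462, 498 and 465, against 19.1 to 24.2. Again the groups of values did not overlap. In the DMT the 4 mice stood at 481, 463, 475 and 457, and the others between 17.2 and 21.3. In the vHipp they stood at 586, 611, 536 and 518, and the others between 21.4 and 28.8. The plot of Cwc22 by region and group shows the 2 levels with nothing between them.

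**Figure D1:**
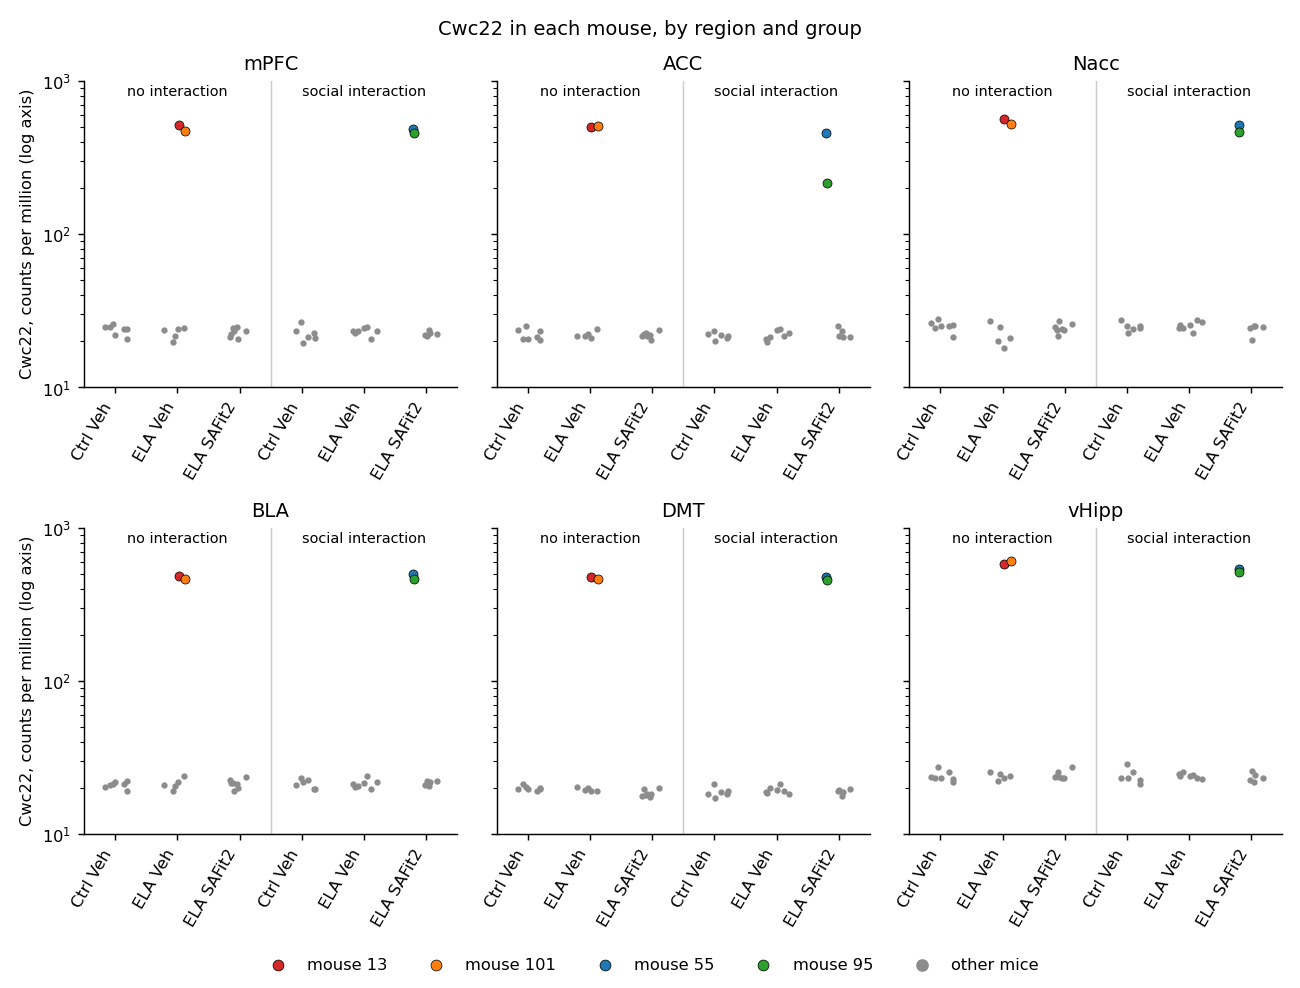
Cwc22 in TMM-scaled CPM (log axis) in each mouse, by condition without (left of the line) and with (right) social interaction, in 6 regions. Each point is 1 library, and NoInteraction_13, NoInteraction_101, SocialInteraction_55 and SocialInteraction_95 are coloured. All libraries of these 4 mice lie at 215.7 or above, and all other libraries at 28.8 or below.

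The 6 regions of an animal agreed closely. After each region's mean was removed, 99.43% of the sum of squares of log2 Cwc22 lay between mice, the highest share among 15237 genes with a mean of at least 1 CPM, whose median share was 25.5%. For the 7 copies summed the share was 99.08%. The members were chosen by differences between conditions among mice without social interaction, which are also differences between mice. This share therefore describes the family and supports nothing further. Within a mouse, the coefficient of variation over its regions ran from 4.8% to 14.4% in the 37 mice. It was 8.3% in NoInteraction_13, 11.3% in NoInteraction_101 and 5.7% in SocialInteraction_55. SocialInteraction_95 varied more, with an SD of 108 CPM around its mean of 430.5. Relative to the region's median over all mice, libraries of the 37 mice lay between 0.72 and 1.20, and the libraries of the 4 mice between 9.8 and 25.4.

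One library departed from its animal. Cwc22 in the ACC of SocialInteraction_95, at 216 CPM, was 0.475 of what the mouse's other regions gave relative to their region medians. The next lowest such ratio in any library was 0.738, in the Nacc of NoInteraction_69, which is among the 12 libraries that matched another mouse. The highest was 1.18, in the ACC of SocialInteraction_79. By the 60 genes that differ between mice, the ACC library of SocialInteraction_95 correlated at 0.737 with its own animal, the lowest value in the ACC, and at 0.640 with another animal as the next best. Its total count of 30095818 was near the median of the series. Whether these values belong together was not tested.

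The copies followed Cwc22 through the mice. Summed over the 7 copies, libraries of the 37 mice held 0.15 to 1.24 CPM, and those of the 4 mice 37.2 to 118. NoInteraction_13 ran from 92.4 to 108 over its regions, with a median of 94.8. NoInteraction_101 ran from 83.9 to 118, with a median of 93.3. In SocialInteraction_55 the sum lay between 86.1 and 104 (median 91.1), and in SocialInteraction_95 between 37.2 and 97.2 (median 86.0). The lowest of the 24 sums was the same ACC library of SocialInteraction_95. The scatter of Cwc22 against its copies shows both groups of libraries far apart on both axes.

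**Figure D2:**
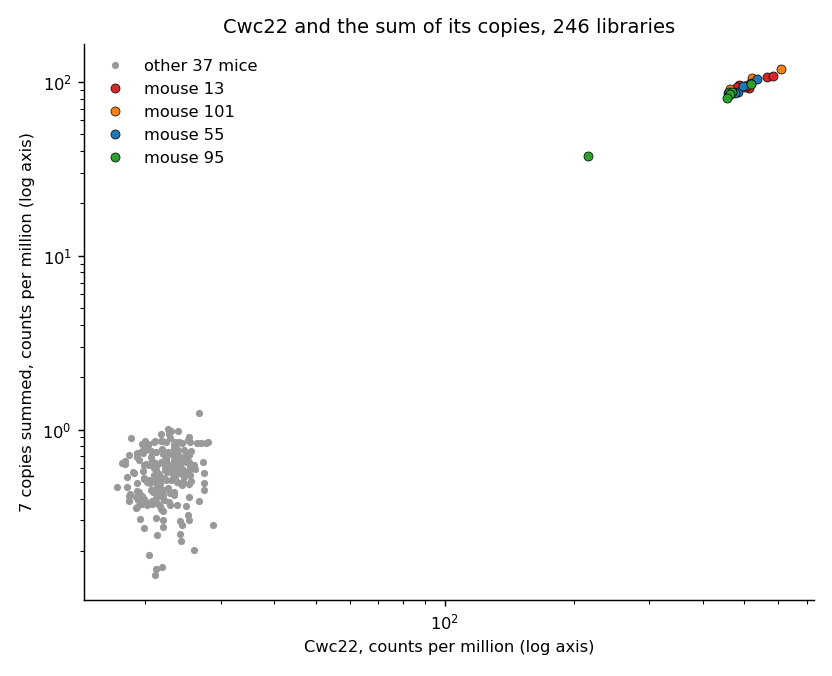
Sum of the 7 copies against Cwc22, both in TMM-scaled CPM on log axes, for all libraries. Grey points are the 37 mice with copies at 0.15 to 1.24, and coloured points the libraries of the 4 animals, with copies at 37.2 to 118.

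The copies also made up a larger part of the family's count in the 4 mice. Shares are of estimated counts and were not divided by gene length. The 7 copies together took 0.69% to 4.61% of the count of all 8 members in the 222 libraries of the 37 mice, and 14.7% to 16.7% in the 24 libraries of the 4 mice. Cwc22 took the rest, 95.4% to 99.3% in the former and 83.3% to 85.3% in the latter. The ACC library of SocialInteraction_95, low in Cwc22, had the lowest share of copies of the 24. In counts, the copies together reached at most 39.5 in a library of the 37 mice, and at least 1079 in a library of the 4.

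Single copies were at or near 0 in most libraries of the 37 mice. Gm13697 was listed at 0 in 137 of the 222 libraries, Gm13698 in 144, Gm13696 in 169, Gm13691 in 171, Gm13693 in 177, Gm13694 in 187 and Gm13695 in 190. The highest count of any copy there was 31.3, for Gm13695. The level of a single copy over a mouse is thus set by few reads and by how these are divided, and the copies were not told apart in those animals.

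In the 4 animals with high Cwc22, the 6 copies of identical coding sequence received similar counts. In the mPFC of NoInteraction_13, for example, Gm13691 stood at 17.9 CPM, Gm13693 at 12.5, Gm13694 at 17.5, Gm13696 at 14.7, Gm13697 at 17.02 and Gm13698 at 12.7. In the Nacc of the same mouse all 6 lay between 17.2 and 18.4. Within a library, the highest of the 6 exceeded the lowest by 1.07 to 2.0 times in NoInteraction_13, NoInteraction_101 and SocialInteraction_55 and by 1.13 to 1.38 times in SocialInteraction_95, leaving aside its ACC library, where Gm13696 was listed at 0. In that library Gm13691 stood at 2.94, Gm13694 at 5.40, Gm13698 at 7.19, Gm13693 at 10.4 and Gm13697 at 11.3 CPM. Single copies varied more over the regions of a mouse than their sum did, to a different degree in each mouse. The mean coefficient of variation of a single one of the 6 copies was 14.0% in NoInteraction_13, 16.0% in NoInteraction_101, 14.6% in SocialInteraction_55 and 29.3% in SocialInteraction_95. That of the sum of the 7 copies was 7.3%, 13.1%, 8.1% and 26.8% in the same order.

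In the 4 high animals Gm13695, the copy with the single different base, received counts unlike those of the other 6. It was listed at 0 in 21 of the 24 libraries of the 4 mice. In the other 3 it reached 1133.9 counts (42.5 CPM, vHipp of NoInteraction_101), 307.1 (10.3, BLA of SocialInteraction_55) and 285.0 (7.63, Nacc of SocialInteraction_95). These 3 libraries held 83.8% of all counts given to Gm13695 in all libraries, and the highest count elsewhere was 31.3. In the vHipp of NoInteraction_101 its level was above that of each of the other copies, which lay between 10.4 and 14.9 CPM. No mouse showed Gm13695 in more than 1 region at this level, unlike the other copies. In the 222 libraries of the 37 mice it was at 0 in 190, close to Gm13694 (187). How far the division of reads among copies enters these counts was not tested.

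**Figure D3:**
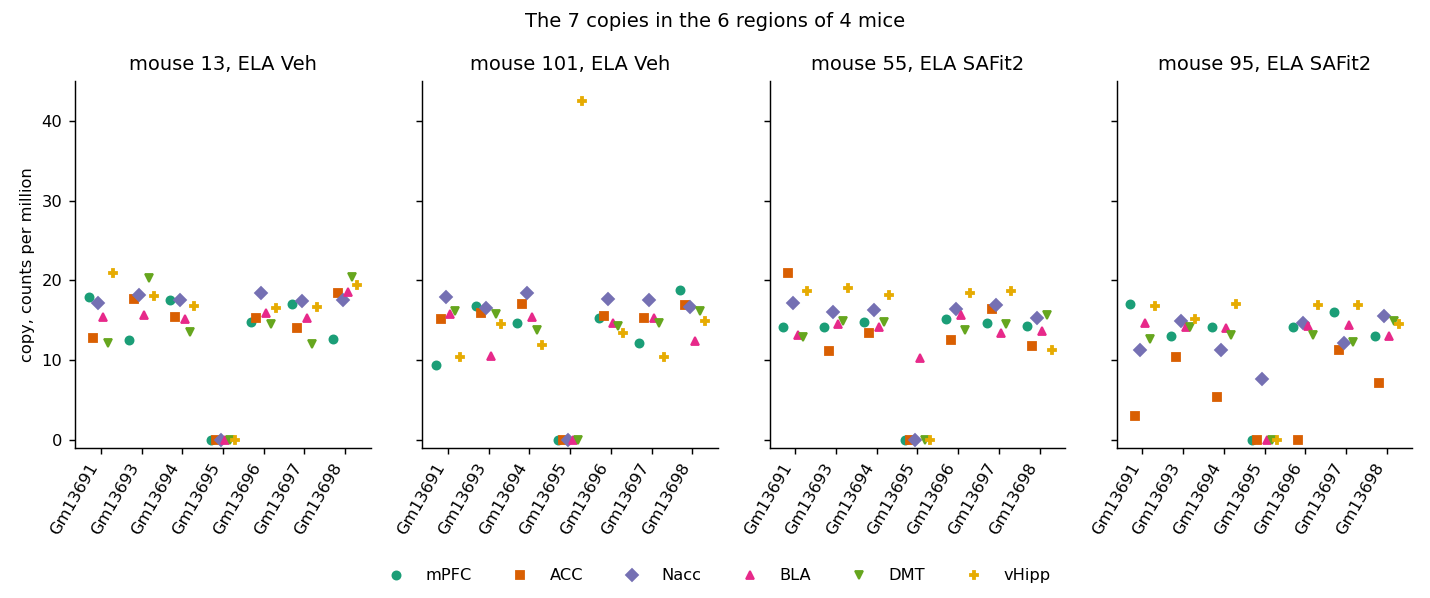
Each of the 7 copies in TMM-scaled CPM in the 6 regions of the 4 animals, with 1 symbol per region. Gm13695 is at 0 in 21 of these 24 libraries and at 42.5, 10.3 and 7.63 in the other 3, and the low squares in SocialInteraction_95 are its ACC library.

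For Cwc22 and for 6 of the copies, 100% of the values above 0 were not whole numbers, and for Gm13697 98.2%. Over all genes this share was 27.7%. A counting tool that splits reads among several genes can assign fractions of a read.

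Among mice without social interaction, the level of Cwc22 differed between conditions in its mean but not in its median. Taking the mean over the 6 regions as a mouse's value, Ctrl_Veh mice had 20.6, 22.7 and 24.7 CPM as lowest, median and highest value (mean 22.7 ± 1.23, SD, n = 7). ELA_Veh mice had 20.4, 22.8 and 523 (mean 163 ± 240.3, n = 7), and ELA_SAFit2 mice 21.1, 22.2 and 24.0 (22.3 ± 0.88, n = 7). The ELA_Veh mean was 7.16 times that of Ctrl_Veh, and the ELA_Veh median 1.01 times. NoInteraction_13 and NoInteraction_101 alone made this difference in means. The other 5 ELA_Veh mice lay between 20.4 (NoInteraction_99, just below both other groups) and 23.2 CPM (NoInteraction_37). No test is given here, because these values chose the genes.

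After social interaction the 2 high animals were in another condition. Ctrl_Veh mice had 20.9, 22.0 and 24.7 CPM as lowest, median and highest value (mean 22.3 ± 1.39, n = 6), and ELA_Veh mice 21.9, 22.6 and 23.6 (22.6 ± 0.61, n = 7). ELA_SAFit2 mice had 21.9, 22.4 and 495 (148 ± 216, n = 7). The ELA_SAFit2 mean was 6.65 times that of Ctrl_Veh, while the median was 1.02 times. In bulk tissue, more cells that express a gene and more RNA of it per cell cannot be told apart.

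In these mice the comparisons of conditions were tested after adding up the 6 libraries of each animal, with edgeR's quasi-likelihood test on 26834 genes. The model held the mice of both sets, so those without social interaction also entered the estimate of spread. All 8 members passed the filter on low counts. For ELA_SAFit2 against Ctrl_Veh, Cwc22 had a log2 fold change of 2.74 ± 0.78 (SE) with a Benjamini-Hochberg adjusted p of 0.527. Against ELA_Veh it was 2.72 ± 0.73 with an adjusted p of 0.534. In an edgeR fit of the mice with social interaction alone, this value was 2.717 with an adjusted p of 0.511. The sums include the Nacc libraries that matched another mouse. Without the Nacc, edgeR gave Cwc22 2.751 against Ctrl_Veh (adjusted p = 0.51) and 2.729 against ELA_Veh (adjusted p = 0.49). In the fit of all mice and regions, none of the 8 members was called in either comparison, against 0% of all genes in each. An unadjusted p under 0.05 was reached by 1201 genes (4.48%) in the former and 1340 (4.99%) in the latter. All 8 members were among these genes in both comparisons. Cwc22 had unadjusted edgeR p-values of 0.00109 and 0.000634 in the same order. For ELA_Veh against Ctrl_Veh, the log2 fold change of Cwc22 was 0.02 ± 0.72 (adjusted p = 0.999), no member was called, and 0% of all genes were. There, 1512 genes (5.63%) had an unadjusted p under 0.05, and DESeq2 called 10 (0.0373%), none of them a member.

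Fitted log2 fold changes of the copies for ELA_SAFit2 against Ctrl_Veh ran from 4.53 (Gm13698) to 7.93 (Gm13691), with adjusted p-values from 0.303 to 0.547. As the copies are close to 0 in the Ctrl_Veh mice, these fitted values depend on the small count that edgeR adds and are no measure of the true fold. DESeq2 on the same counts called 2 members, Gm13691 (adjusted p = 0.00196) and Gm13697 (adjusted p = 0.00505), where it called 0.0484% of all genes. For ELA_SAFit2 against ELA_Veh it called Gm13691 (adjusted p = 0.0172), where it called 0.00745% of genes. Cwc22 itself was not called by DESeq2 (adjusted p = 0.0892 and 0.111). Both comparisons rest on SocialInteraction_55 and SocialInteraction_95, since the other 5 ELA_SAFit2 mice lay at the level of the other conditions. With SocialInteraction_55 left out, the log2 fold change of Cwc22 against Ctrl_Veh was 2.02 (adjusted p = 0.939), and with SocialInteraction_95 left out 2.185 (adjusted p = 0.999).

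Social interaction against none, averaged over the 3 conditions, gave a log2 fold change of -0.05 ± 0.40 (SE) for Cwc22. This is a description, since it draws on the mice that chose the members and each set held 2 high animals. Among the copies, values ran from -1.38 (Gm13695) to 0.15 (Gm13693). None of the 8 members was called by edgeR, against 5.16% of all genes (2.8% higher and 2.36% lower), or by DESeq2, against 7.54%, and nothing is read from these counts. An unadjusted p under 0.05 was reached by 17.8% of genes in edgeR. The same 5.16% background stands beside a list of 40 genes of the spliceosome, the exon junction complex and RNA surveillance that work with or near Cwc22. In that list 5 were higher after interaction, 1 was lower and 34 were not called. The surveillance helicase Upf1 was higher by 0.05 on the log2 scale (adjusted p = 0.0200), and the spliceosome component Snw1 by 0.06 (adjusted p = 0.0203). Among 17 genes of chromosome 2 near Cwc22, Sestd1 alone was called, lower by 0.06 (adjusted p = 0.0282). Eif4a3, the direct partner of Cwc22, differed by 0.00 ± 0.01 (adjusted p = 0.987).

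Differences of Cwc22 between regions were small beside those between mice but recurred in most animals. Its median over 41 mice was highest in the Nacc, at 25.1 CPM, followed by the vHipp at 24.0, the mPFC at 23.3, the ACC at 22.0, the BLA at 21.6 and the DMT at 19.4. Between neighbours in this order, the difference within a mouse was larger than its SD over mice only from the BLA to the DMT (0.13 ± 0.10 on the log2 scale, 37 of 41 mice). From the Nacc to the vHipp it was 0.00 ± 0.15, with the Nacc higher in 22 of 41 mice. In 12 of these pairs the Nacc library matched another mouse, which holds for every within-mouse comparison with the Nacc. The steps from vHipp to mPFC (0.08 ± 0.11), from mPFC to ACC (0.07 ± 0.19) and from ACC to BLA (0.02 ± 0.20) were likewise within the SD. Means and SDs of both steps with the ACC include the low ACC library of SocialInteraction_95. It lay -1.13 on the log2 scale from the mean of that mouse's other 5 regions.

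Each region was tested against the mean of the other 5 with the mouse as a block. Cwc22 was lower in the DMT by a log2 difference of -0.24 ± 0.02 (edgeR, adjusted p = 1.33e-25), in 40 of 41 mice. It was higher in the vHipp (0.15 ± 0.02, adjusted p = 2.56e-13), in 40 of 41 mice, and in the Nacc (0.15 ± 0.02, adjusted p = 1.52e-12), in 35 of 41 mice. With the 12 mismatched libraries left out, the Nacc difference was 0.13 (adjusted p = 3.17e-08). Smaller differences were called in the BLA (-0.06, adjusted p = 0.00478), the mPFC (0.05, adjusted p = 0.0186) and the ACC (-0.05, adjusted p = 0.0176). The ACC difference shrank to -0.03 (adjusted p = 0.147) when the ACC library of SocialInteraction_95 was left out. Without the block, when the spread between mice enters the error, the DMT difference was -0.13 ± 0.32 (adjusted p = 0.725) and none of the 6 was called.

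A call between regions says little on its own, since most genes differed. The test called 76.8% of 26835 genes in the DMT, 68.3% in the vHipp, 67.1% in the Nacc, 63.4% in the ACC, 62.6% in the BLA and 62.6% in the mPFC. By direction, 36.9% of genes were higher and 39.9% lower in the DMT, 34.7% and 33.6% in the vHipp, and 35.2% and 31.9% in the Nacc. In the ACC these shares were 30.2% and 33.2%, in the BLA 33.3% and 29.2%, and in the mPFC 31.6% and 30.9%. In size the Cwc22 differences were below the typical gene. In the DMT, 62.7% of genes had a larger difference than Cwc22, and in the ACC 84.2%. Mouse by mouse, the DMT was the lowest of the 6 regions in 34 of 41 animals. Of the 4 high mice, all had their highest Cwc22 level in the vHipp, as did 16 of 41 mice in all, and 1 had its lowest in the DMT.

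**Figure D4:**
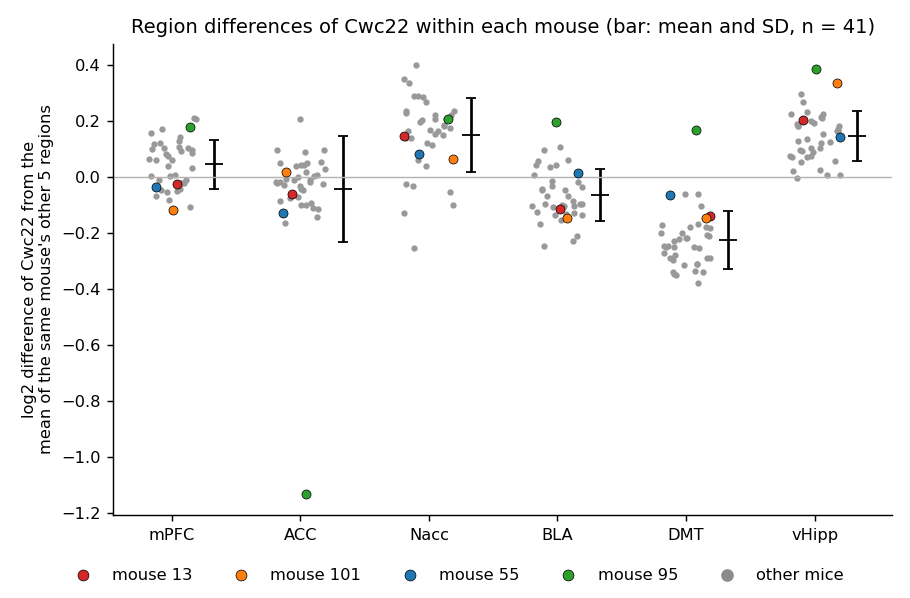
Log2 difference of Cwc22 in each region from the mean of the same mouse's other 5 regions, 1 point per mouse, with the mean and SD over 41 mice as bars. The DMT lies below 0 in 40 of 41 mice and the vHipp above 0 in 40 of 41, and the ACC point far below belongs to SocialInteraction_95.

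Among the copies, 2 were called in any region comparison, where the test called 62.6% (mPFC and BLA) to 76.8% (DMT) of all genes. Gm13696 was lower in the ACC, with a log2 difference of -0.675 (adjusted p = 0.00277). Without the ACC library of SocialInteraction_95, where it was listed at 0, the difference was -0.31 (adjusted p = 0.178). Gm13695 was called in 5 regions, higher in the vHipp (2.49, adjusted p = 8.18e-07), the Nacc (1.61, adjusted p = 0.00589) and the BLA (1.61, adjusted p = 0.00712) and lower in the mPFC and the ACC. Those 3 regions are the ones that hold its 3 high libraries. With these libraries left out, the vHipp value turned to -1.97 (adjusted p = 0.0087). With limma-voom none of the 5 calls remained, with a vHipp value of 0.04 (adjusted p = 0.929) and adjusted p-values from 0.0832 to 0.749 in the other 4 regions. The other 5 copies were not called in any of the 6 regions. As single copies are at or near 0 in most libraries, nothing is read from this.

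The 40 splicing and exon junction genes showed called differences in most regions too. In the DMT 26 were lower, 8 higher and 6 not called, beside 39.9% of all genes lower and 36.9% higher. The median log2 difference there was -0.10 against -0.02 over all genes. In the vHipp 24 were higher, 9 lower and 7 not called (median 0.08 against 0.00), beside 34.7% of all genes higher and 33.6% lower. Rbm22, a spliceosome component, had the smallest p of the list in both, at -0.59 (DMT) and 0.52 (vHipp). In the other regions the calls were more even or leaned otherwise, with 17 higher and 15 lower in the Nacc, 15 and 16 in the ACC, 13 and 19 in the BLA, and 21 and 10 in the mPFC. Over all genes, the shares higher and lower were 35.2% and 31.9% in the Nacc and 30.2% and 33.2% in the ACC. They were 33.3% and 29.2% in the BLA and 31.6% and 30.9% in the mPFC.

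Across mice, the 4 high animals lay inside the range of the rest for most genes that work with Cwc22, as they did for most genes of any kind. Values here are means over the 5 regions other than the Nacc. Eif4a3 stood at 35.1, 35.3, 34.98 and 34.9 CPM in NoInteraction_13, NoInteraction_101, SocialInteraction_55 and SocialInteraction_95 in this order and between 33.6 and 38.3 in the other 37. For 38 of the 40 genes of the list, all 4 mice lay inside the range of the others, against 89.1% of 15237 genes with a mean of at least 1 CPM. The exceptions were Cwc25, with 22.5 in SocialInteraction_95 against at most 22.3 elsewhere, and Snw1, with 50.5 in NoInteraction_101 against at least 50.6 elsewhere.

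Genes most like Cwc22 over the 41 mice by rank were 1700012D14Rik (Spearman's rho 0.74), Gm45769 (0.61), Gm43570 (0.59), Ccna2 (0.56) and Gm37755 (0.56). As ranks among the 37 mice weigh as much as the step between both levels, this measure does not pick out genes that share the step. Therefore the genes with their 4 highest values in the same 4 mice were also listed, a choice made after the values were seen. Among 15237 genes with a mean of at least 1 CPM, 3 that are no members had them there, Nckap1, Tfpi and Abi1. Cwc22 and 6 copies also did, but these copies reach that mean only through the 4 animals, and Gm13695 does not reach it. With their 4 lowest values in these mice there was 1 gene, Gm4353. All is description, with no test.

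Nckap1, a subunit of the WAVE complex that drives branching of actin filaments, lies at chr2:80500512-80581380 (GRCm38, minus strand), between Cwc22 and its copies. It stood at 493.2, 477, 495 and 478 CPM in the 4 high animals, in the same order, and between 362 and 410 in the others. In 5 of the 6 regions its values in these mice lay above those of all others, the Nacc being the exception. Of the 17 genes near Cwc22, 16 reached a mean of 1 CPM, and in 11 of them (68.8%) the 4 mice lay inside the range of the others, against 89.1% of all genes. The 5 exceptions were Nckap1, Cerkl, Dnajc10, Frzb and Dusp19, of which Nckap1 alone had all 4 mice outside. Gm4353, on chromosome 7 (116082863 to 116084635, GRCm38), stood at 1.49, 1.35, 1.54 and 1.63 CPM in the 4 mice and between 2.33 and 3.12 in the others. Its sequence is 99.42% identical over 1558 aligned bases to Nup35, a nuclear pore gene of chromosome 2 next to Nckap1, so reads may be split between them too. Nup35 itself stood at 12.3, 12.01, 11.8 and 11.9, inside the range of the others. The plot of both genes shows Nckap1 above the range of the 37 mice in 5 regions and Gm4353 below it in 3, the mPFC, BLA and vHipp.

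**Figure D5:**
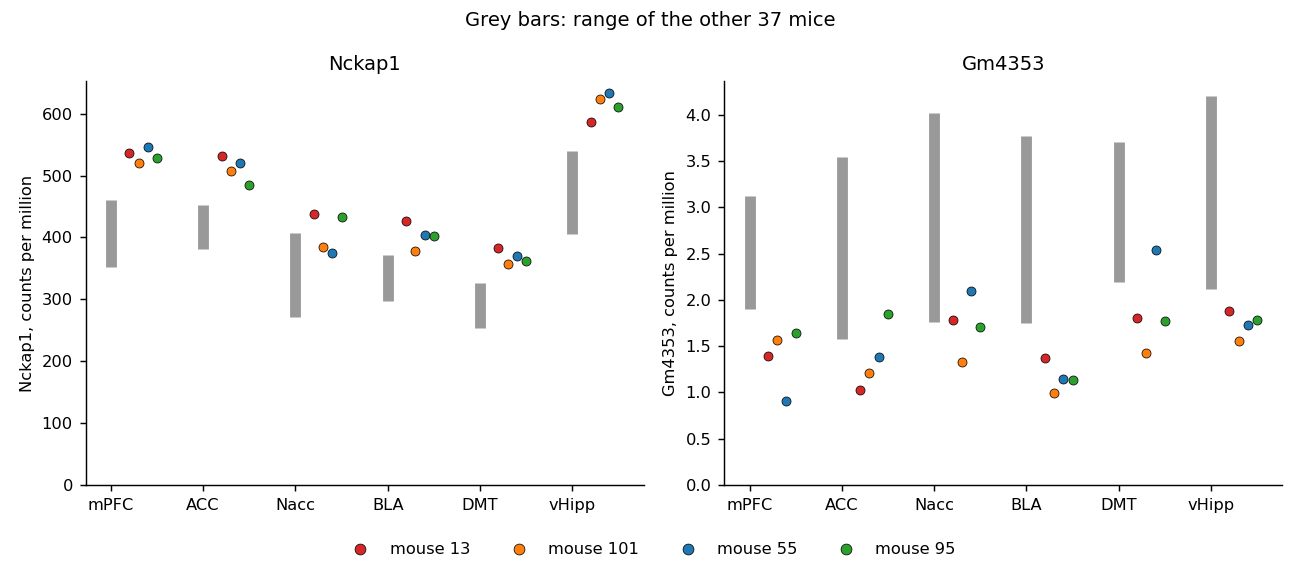
Nckap1 (left) and Gm4353 (right) in TMM-scaled CPM in 6 regions. Coloured points are the 4 animals, and grey bars the range of the other 37 mice, which the 4 mice overlap for Nckap1 in the Nacc alone and for Gm4353 in the ACC, Nacc and DMT.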

How the data were processed

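RNA was sequenced after poly-A selection with a stranded kit. The authors deposited estimated counts by gene from salmon, as the table is named. Processing notes of the submitters also name STAR, DESeq2 and the build GRCm39, and the annotation release is not given in the sources used here. Of the values, 12.12% are not whole, and all were rounded for the tests. Salmon divides reads that fit several genes by a model, which affects these 8 genes more than most. Gene positions and sequences come from GENCODE M21 (GRCm38) and were not converted. The deposited IDs of these 8 genes carry later versions, so the gene models counted may differ from those compared here.

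Conditions, regions and mouse numbers were taken from the labels, and all libraries were used under them. By the labels, the same mouse number in several regions marks the same animal, and 12 Nacc libraries matched another one. Genes entered a test if their counts added up to 100 or more and 6 or more mice or libraries had a count. They were tested with edgeR 4.0.16 (TMM, quasi-likelihood test, Benjamini-Hochberg adjustment, threshold 0.05) in R 4.3.3. Region fits used edgeR's dispersion estimation within the quasi-likelihood fit, with the mouse as a block. Alternatives used DESeq2 1.42.0 and limma 3.58.1. Log2 levels had a pseudocount of 0.5. The test recovered 100% of 200 genes with a simulated log2 change of 1.5 in ELA_Veh against Ctrl_Veh after social interaction, among 26834 genes, with 5 false calls. For the DMT against the other 5 regions it recovered 100% of 200 genes simulated with a log2 difference of 0.5, among 3000 genes, with 14 false calls. In both simulations the change was the same in every mouse, and the spread was set alike for all genes. Genes that are high in single animals of a group, as the members are, were not simulated. These shares therefore say nothing about the power for the members.

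The members, gene lists and comparisons were chosen with earlier results of these data known. Named genes are the 8 members, the 5 genes most like Cwc22 by rank over mice, and up to 3 called genes per list and comparison. A called gene of these lists is not reported here. Eif4a3, Cwc25, Cerkl, Dnajc10, Frzb, Dusp19, Nup35, Nckap1, Tfpi, Abi1 and Gm4353 were named after their values were seen. Litters were not modelled, so p-values cover only the spread between these mice.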

Additional observations from a re-analysis of the deposited data

Results flagged for a closer look

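Within the 6 or 7 mice of a group in a region, or within the 6 regions of a mouse, a value was listed when its gap to the nearest other value exceeded Dixon's limit. Of 124 groups of mice tested for a member or for the copies summed, 7 were listed, and of 41 sets of regions 3. Chance lists about 1 in 20 groups. All values are in CPM. In the ACC of the ELA_SAFit2 mice with social interaction, SocialInteraction_55 stood apart for Gm13691 (20.9, nearest 2.9), Gm13694 (13.4, nearest 5.4), Gm13696 (12.5, nearest 0) and the copies summed (86.1, nearest 37.2). In each case the other high mouse of the group, SocialInteraction_95, held its low ACC library. Gm13695 stood apart in the vHipp of NoInteraction_101 (42.5), the BLA of SocialInteraction_55 (10.3) and the Nacc of SocialInteraction_95 (7.6), with no more than 0.5 in the nearest mouse of each group. Taken relative to each region's median, Cwc22 stood apart from the other regions of its mouse in the ACC of SocialInteraction_95 (215.7), the Nacc of NoInteraction_69 (18.2) and the ACC of SocialInteraction_79 (25.3), the last on the high side.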

How the results depend on the processing

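DESeq2 in place of edgeR called 10 genes for ELA_Veh against Ctrl_Veh after social interaction, 2 for ELA_SAFit2 against ELA_Veh (1 a member) and 13 for ELA_SAFit2 against Ctrl_Veh (2 of them members), where edgeR called 0 in each. With each mouse left out in turn, edgeR called 0 to 5, 0 to 1 and 0 to 5 genes in these comparisons, 1045 to 1658 for social interaction against none, and 0 members throughout. Over these fits the log2 fold change of Cwc22 ran from 0.003 to 0.054, from 2.0 to 2.91 and from 2.02 to 2.93, and for social interaction from -0.288 to 0.172, so its sign is set by single mice. In the region comparisons, dropping the block of mouse numbers turned the mPFC difference of Cwc22 to -0.004 and ended the other calls (ACC -0.181, Nacc 0.122, BLA -0.040, DMT -0.128, vHipp 0.230). The mPFC difference also lost its call with other size factors (0.038), without the low-count filter (0.041) and with limma-voom (0.048). The ACC difference lost its call without that filter (-0.046), in the mice without social interaction alone (-0.027) and, chosen after seeing the data, without the ACC library of SocialInteraction_95 (-0.025). The DMT, vHipp, Nacc and BLA calls held in all other fits. Gm13695 changed sign in the Nacc (-0.197) and BLA (-0.307) in the mice without social interaction alone, and in the ACC (0.152) and vHipp (-1.974) without its 3 high libraries. Numbered mice share no animals across conditions, so no paired analysis was possible there. The share of variance between mice was 99.39%, 99.48% and 99.47% for Cwc22 and 99.06%, 99.13% and 99.6% for the copies with total-count scaling, without the Nacc and with a pseudocount of 5. Counts of single identical copies are limited by how reads are divided, and not by depth alone.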

Other observations

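Tfpi and Abi1 had their 4 highest levels in the same 4 mice as Cwc22, as means over the 5 regions other than the Nacc, and were named after these values were seen. Tfpi, an inhibitor of blood coagulation on chromosome 2 beyond the copies, stood at 4.34, 4.03, 4.24 and 3.86 CPM in the 4 animals and between 2.30 and 3.74 in the others. Abi1, another subunit of the WAVE complex, lies on the same chromosome at 22940073 to 23040241 (GRCm38), far from Cwc22. It stood at 117, 113, 115 and 114 in these mice and between 98.2 and 111.4 in the others. In no single region did the 4 mice lie apart from the rest for either gene.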
